A study of Mus musculus with 16 samples.

Results

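Of 24019 genes counted in mouse pancreas, 63 carry symbols of the eukaryotic initiation factor series Eif1 to Eif6 or of the elongation factor series Eef1 and Eef2, and their transcripts are described here by role. The rule uses gene symbols and leaves out the eIF2 alpha kinases (Eif2ak genes), Eif2s3y and pseudogene names. Pancreas was profiled by RNA sequencing with unique molecular identifiers (UMIs) in 16 mice, 4 in each of 4 groups. C57BL/6J wild type (WT) mice and Adam17ex/ex littermates (Adam17ex here), which carry the hypomorphic Adam17ex allele of the gene for the membrane sheddase ADAM17 in all tissues, were 6 to 8 weeks old. Both received 7 hourly intraperitoneal injections of PBS or of cerulein at 50 µg per kg, a cholecystokinin analogue that overstimulates acinar cells and induces acute pancreatitis, and were culled 1 h after the last. Each of the 4 combinations is a group of its own, so WT PBS, WT cerulein, Adam17ex PBS and Adam17ex cerulein mice shared age, injection schedule and tissue.

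Protein synthesis starts when a ternary complex of eIF2, GTP and initiator tRNA joins the small ribosomal subunit together with eIF1, eIF1A, eIF3 and eIF5, while eIF4F, made of the cap-binding eIF4E, the scaffold eIF4G and the helicase eIF4A, brings the mRNA. The 4E-binding proteins hold eIF4E away from eIF4G until mTORC1 phosphorylates them, and phosphorylation of eIF2 alpha blocks its exchange factor eIF2B. During elongation eEF1A delivers aminoacyl-tRNA, the eEF1B subunits recharge eEF1A with GTP, and eEF2 moves the ribosome along the mRNA. Acinar cells of the pancreas make digestive enzymes at a very high rate, and cholecystokinin agonists are known to act on this machinery there. The symbols also reach genes outside these steps: Eif4a3 encodes a helicase of the exon junction complex, Eef1e1 a scaffold of the aminoacyl-tRNA synthetase complex, and the Eef1akmt genes, Eef1aknmt, Eef2kmt and Eef2k enzymes that modify elongation factors.

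Promoter words are shown first for a few members whose transcripts carry the results, as sequence context and not as evidence of binding. RefSeq starts on GRCm38.p6 matched 48 of the 63 members, and the 250 bases before each start were searched on both strands. The E-box CACGTG, which reads the same on both strands and is the word of the MYC and USF factors, was present in 13 of the 48 (27.1%), against 657 of the 5966 tested genes with a promoter and 6.86% of all 27025 promoters. It is shown in capitals, 5′ to 3′ on the gene's strand, before Eif4a1, which was higher with cerulein in both genotypes, Eef2, higher in Adam17ex, and Eif5a, lower in Adam17ex under PBS. The Eif4g1 window is printed beside them as a member that passed in no comparison.
Eif4a1, chr11:69672577-69672642, minus strand: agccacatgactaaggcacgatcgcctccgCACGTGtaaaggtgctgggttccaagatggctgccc
Eif4g1, chr16:20672643-20672708, plus strand: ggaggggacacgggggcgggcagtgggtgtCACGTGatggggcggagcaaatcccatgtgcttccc
Eef2, chr10:81176558-81176623, plus strand: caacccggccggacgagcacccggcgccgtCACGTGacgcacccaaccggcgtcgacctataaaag
Eif5a, chr11:69921425-69921490, minus strand: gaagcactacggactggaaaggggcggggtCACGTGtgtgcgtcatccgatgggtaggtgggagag
In the Eef2 window the E-box overlaps the word TGACG on both sides, so the same bases count for both words. The half-site TGACG of cyclic AMP response elements lay before 22 of 48 members (45.8%), against 32.8% of tested genes and 19.8% of all promoters. It is printed in capitals, as read on the gene's strand (so also as its reverse complement), before 3 of the genes that were higher in both genotypes.
Eif1, chr11:100319806-100319870, plus strand: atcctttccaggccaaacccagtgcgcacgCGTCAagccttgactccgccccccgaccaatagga
Eif3d, chr15:77970949-77971013, minus strand: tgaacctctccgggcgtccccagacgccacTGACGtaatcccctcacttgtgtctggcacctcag
Eif4a1, chr11:69672424-69672459, minus strand: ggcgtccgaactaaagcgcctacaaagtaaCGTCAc
Among the 11 members higher in both genotypes, 7 had a promoter, of which 1 held the E-box (14.3%) and 4 the half-site (57.1%). The word TGATGNAA, the core of the C/EBP-ATF composite element of stress-response genes, lay on either strand before 2 members (4.17%), against 2.60% of tested genes, and before 0 of those 7. These words are matches of letters in a window, and no binding was measured.

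Library depth was 859573 to 1476159 UMIs in 13 libraries and 455547 to 492878 in Adam17ex PBS replicates 1 to 3, so 1 UMI equals 0.677 to 2.20 CPM, the unit of counts scaled to equal library totals. The marker sums in CPM below carry in addition the TMM factors described in the next paragraph. All 18 acinar markers were detected and took 32.8% ± 0.546 of UMIs with PBS and 26.1% ± 2.16 with cerulein in WT, and 31.0% ± 3.80 and 30.5% ± 1.02 in Adam17ex (SD, n = 4 per group). Duct markers summed to 371 to 418, 1179 to 1456, 380 to 473 and 520 to 580 CPM in the same order, with all 9 in the file and 0 of them absent from any group. Islet markers (10 of 10) summed to 4306 to 13356, 1342 to 9235, 5095 to 22277 and 1768 to 6205 CPM, and those of macrophages and monocytes (11 of 11) to 90.3 to 515, 187 to 284, 166 to 1240 and 156 to 250 CPM. B and plasma cell markers (8 of 8) summed to 24.1 to 983, 8.60 to 44.3, 28.6 to 749 and 8.44 to 173 CPM in the same order, with 4 of the 8 at 0 in WT cerulein, and all 3 tested were lower with cerulein in both genotypes. Adipocyte markers (7 of 7) summed to 57.7 to 494, 38.7 to 67.6, 166 to 954 and 77.7 to 415 CPM, with 4 of 4 tested lower in WT and 3 in Adam17ex. Of 5 tested fibroblast and stellate markers, 1 was lower in WT and 4 in Adam17ex, and of 10 islet markers 8 were lower with cerulein in Adam17ex. Acinar markers were lower for 8 of 18 in WT and 1 in Adam17ex. Among 6 tested duct markers, 5 were higher and 1 lower in WT, and 2 were higher in Adam17ex. For 9 tested macrophage and monocyte markers, 1 was higher and 1 lower in WT, and 4 were lower in Adam17ex. Over all genes tested, 19.8% were higher and 21.3% lower in WT, and 14.1% and 16.2% in Adam17ex. Neutrophil markers (5 of 7 in the file) reached at most 36.5 CPM and T cell markers (6 of 6) at most 48.2 CPM in any library. The part of these shifts in cell type markers in the results was not tested, and in whole tissue fewer cells of a type and less RNA per cell cannot be told apart. Adam17 itself was counted 41, 68, 10 and 15 times in the 4 groups, which differ in depth. In the edgeR test used below it was lower in Adam17ex than in WT under cerulein (log2 fold change -2.05 ± 0.40, adjusted p = 0.00138). Under PBS it was not called (-1.21 ± 0.49, adjusted p = 0.21). Reads were primed on the poly(A) tail, so these counts may miss the altered stretch of the allele and are no check of the genotype.

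Together the 63 members took 0.710% ± 0.0222 of UMIs with PBS and 1.02% ± 0.0988 with cerulein in WT, and 0.618% ± 0.0392 and 0.904% ± 0.0410 in Adam17ex (SD, n = 4 per group). No cerulein library (0.859% to 1.09%) overlapped a PBS library (0.574% to 0.731%). This share also moves with the share left by the digestive enzymes. With TMM scaling, the trimmed-mean factors of edgeR, the members summed to 7440 ± 415, 9117 ± 118, 6829 ± 721 and 9632 ± 574 CPM in the same order. The marker sums above and all CPM values from here on are TMM-scaled. A filter on low counts left 58 members in the test. The 5 that did not pass it, Eif5a2, Eef1akmt1, Eef1akmt2 and the Eif4a3-like genes Eif4a3l1 and Eif4a3l2, had 12 to 99 UMIs over all 16 libraries. Of the 63 members, 13 share exon sequence with another gene on the same strand in GENCODE M21. The partner is a small nucleolar RNA for 5, another small RNA for 5 and a protein-coding gene for 3, Eef1d with Naprt, Eif4e3 with Gm20696 and Eef1akmt4 with Gm49333, so the values of these 3 are uncertain. Likewise Eif3j1 and Eif3j2 are near-identical copies whose values are uncertain.

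With cerulein in WT mice, transcripts of 6 of 11 genes listed with scanning and the ternary complex were higher. So were those of eIF4A1, of 4 of 14 eIF3 genes and of the anti-association factor eIF6. The eEF1 and eEF2 genes were not called. In edgeR's quasi-likelihood test, with Benjamini-Hochberg adjustment over all 8236 genes tested and a threshold of 0.05, 21 of the 58 tested members passed (36.2%), against 41.1% of all genes. Of these 17 were higher (29.3%, against 19.8% of all genes) and 4 lower (6.9%, against 21.3%). The median log2 fold change was 0.16 over the members and -0.04 over all genes tested. The groups did not overlap for 18 members on the higher side, against 19.2% of all genes, and for 6 on the lower side, against 20.2%. The share of members called in either direction was thus below that of all genes, and its split leaned to the higher side. The roles given below with 0 members lower in WT also had 0 in DESeq2 and in limma-voom, and at an unadjusted p under 0.05 the edgeR test had 1, Eif2s3x.

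In Adam17ex mice the same comparison also called 21 of 58 members (36.2%), against 30.3% of all genes. It had 19 higher (32.8%, against 14.1%) and 2 lower (3.45%, against 16.2%), and 47 of 58 lay above 0. The median was 0.43 over the members and -0.03 over all genes. The groups did not overlap for 18 members on the higher side, against 13.8% of all genes, and for 0 on the lower side, against 11.9%. Without Adam17ex PBS replicates 1 to 3, which leaves 1 control library whose spread is taken from the other groups, 13 members passed, 12 higher and 1 lower, of which 12 were among the 21, and 13.7% of all genes passed. The members higher in both genotypes were 11, or 64.7% of the WT list and 57.9% of the Adam17ex list: Eif1, Eif1a, Eif2s1, Eif2s2, Eif3c, Eif3d, Eif3j2, Eif4a1, Eif4ebp1, Eif5 and Eif6. The lower lists shared Eif4ebp2. Roles given below with 0 members lower in Adam17ex had 0 at an unadjusted p under 0.05 and 0 in DESeq2 and limma-voom.

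**Figure D1:**
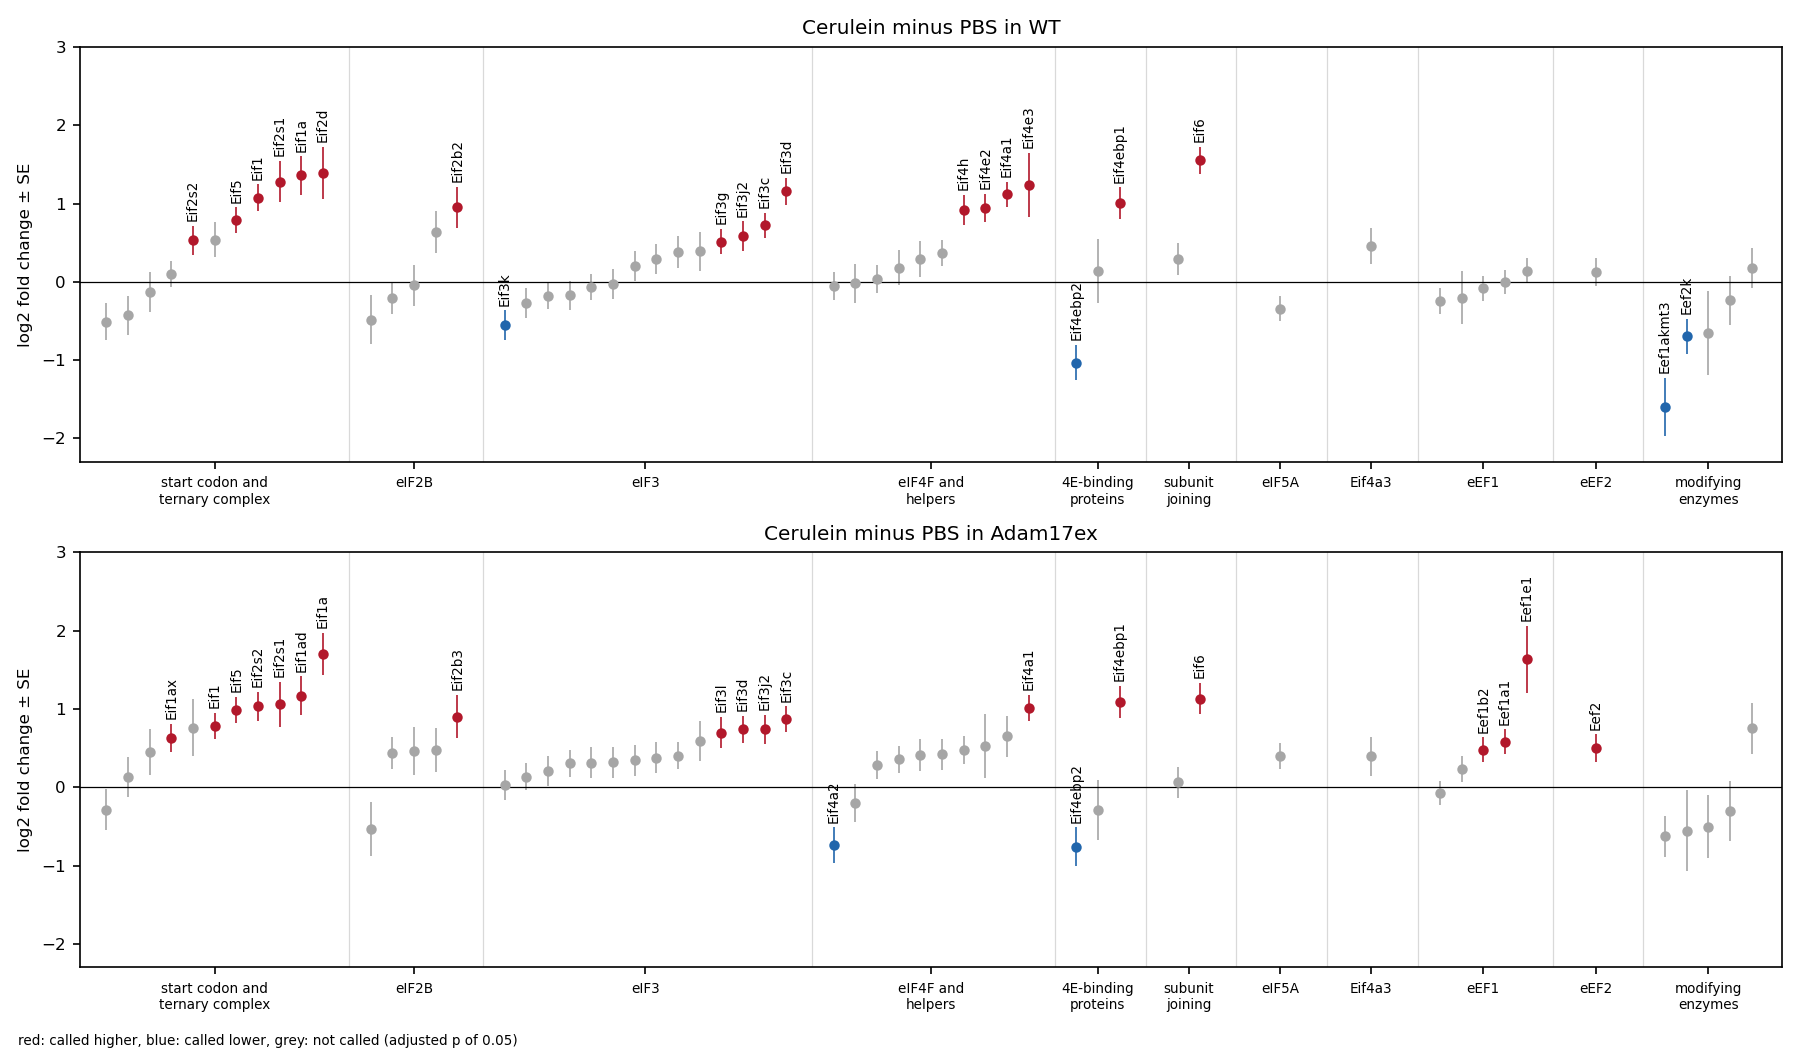
Log2 fold change ± SE of the 58 tested members, cerulein minus PBS, by role, in WT (top) and Adam17ex (bottom); red and blue points passed the adjusted p of 0.05 and grey points did not. The 6 called start codon and ternary complex members in WT and the 7 in Adam17ex all lie above 0, and the eEF1 and eEF2 members are grey in WT.

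The genes listed with scanning, start codon choice and the ternary complex had 6 of 11 members higher and 0 lower in WT (median 0.54). In Adam17ex 7 were higher and 0 lower (median 0.78). The higher shares were 54.5% and 63.6%, against 19.8% of all genes in WT and 14.1% in Adam17ex. This list takes in Eif1ad, Eif2a and Eif2d, placed there by symbol. Eif1 (chr11:100319885-100322096), which keeps the scanning ribosome selective for the start codon, stood at 185, 237, 194 and 230 CPM in WT PBS libraries and at 437, 519, 359 and 416 CPM in WT cerulein libraries. The Adam17ex libraries were at 159, 240, 183 and 217 CPM with PBS and at 323, 334, 322 and 386 CPM with cerulein. Every cerulein library lay above every PBS library in both genotypes, and the log2 fold changes were 1.08 ± 0.17 in WT (adjusted p = 2.36e-05) and 0.78 ± 0.17 in Adam17ex (adjusted p = 0.00133). Without the 3 shallow Adam17ex PBS libraries the latter was 0.69 and did not pass.

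Eif1a and Eif1ax are paralogues for eIF1A, which promotes scanning. Eif1a was at 29.4, 37.2, 36.7 and 80.9 CPM in WT PBS and at 137, 93.0, 133 and 121 CPM in WT cerulein libraries. It was at 46.8, 36.1, 50.2 and 27.3 CPM in Adam17ex PBS and at 147, 130, 114 and 114 CPM in Adam17ex cerulein libraries. WT PBS replicate 4 was high among its controls and still below the lowest cerulein library. The log2 fold changes were 1.36 ± 0.25 and 1.70 ± 0.27. Eif1ax had values of 0.10 ± 0.17 in WT, which did not pass, and 0.63 ± 0.18 in Adam17ex (adjusted p = 0.00961), where the call was lost without the 3 shallow libraries at 0.65. Within a library the ratio of Eif1a to Eif1ax counts was 0.379 to 0.930 in WT PBS and 1.24 to 1.70 in WT cerulein, and 0.466 to 0.862 in Adam17ex PBS and 1.28 to 1.42 in Adam17ex cerulein libraries. The ratio showed unequal change between the paralogues in both genotypes, with no overlap between PBS and cerulein libraries.

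Eif2s1 encodes the alpha subunit of eIF2, the subunit whose phosphorylation limits initiation. Its values were 9.40, 41.0, 31.5 and 36.8 CPM in WT PBS and 71.5, 86.4, 63.0 and 71.9 CPM in WT cerulein libraries, and 24.2 to 36.4 CPM and 53.3 to 70.7 CPM in the Adam17ex groups. The groups did not overlap in either genotype, and Eif2s1 rose by 1.28 ± 0.26 and 1.06 ± 0.29 on the log2 scale. WT PBS replicate 1, the low control, had 8 UMIs of this transcript. Eif2s2, the beta subunit, ranged from 283 to 497 CPM in WT PBS and from 503 to 642 CPM in WT cerulein libraries, a log2 fold change of 0.53 ± 0.19 (adjusted p = 0.0243). It did not pass without WT PBS replicate 1 (0.41) or without WT cerulein replicate 2 (0.47). In Adam17ex it went from 302 to 426 CPM with PBS to 615 to 786 CPM with cerulein, or 1.03 ± 0.18. Eif2s3x, an X-linked gene for the gamma subunit, had values of -0.51 ± 0.24 and 0.13 ± 0.25 and did not pass in either genotype. The 3 subunit genes tested were thus not called together. Eif2s3y is left out by the rule, and the groups differ in their numbers of males.

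Eif5, the GTPase activator of eIF2, had narrow groups at 227 to 254 CPM in WT PBS and 401 to 435 CPM in WT cerulein libraries. In Adam17ex it was at 183 to 291 CPM and 421 to 531 CPM, and the log2 fold changes were 0.79 ± 0.16 and 0.99 ± 0.16. Both comparisons were free of overlap between groups. Eif2d, an initiator tRNA carrier outside the canonical pathway, rose by 1.39 ± 0.33 in WT from 4.70 to 15.7 CPM to 18.6 to 41.3 CPM, that is from 4 to 20 UMIs per library to 26 to 50. This WT call did not hold under every alternative. In Adam17ex the Eif2d value was 0.76 ± 0.36 (adjusted p = 0.111). Eif1ad was higher in Adam17ex by 1.17 ± 0.24, with 0.54 ± 0.22 in WT (adjusted p = 0.0547), and Eif1b and Eif2a passed in neither genotype.

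**Figure D2:**
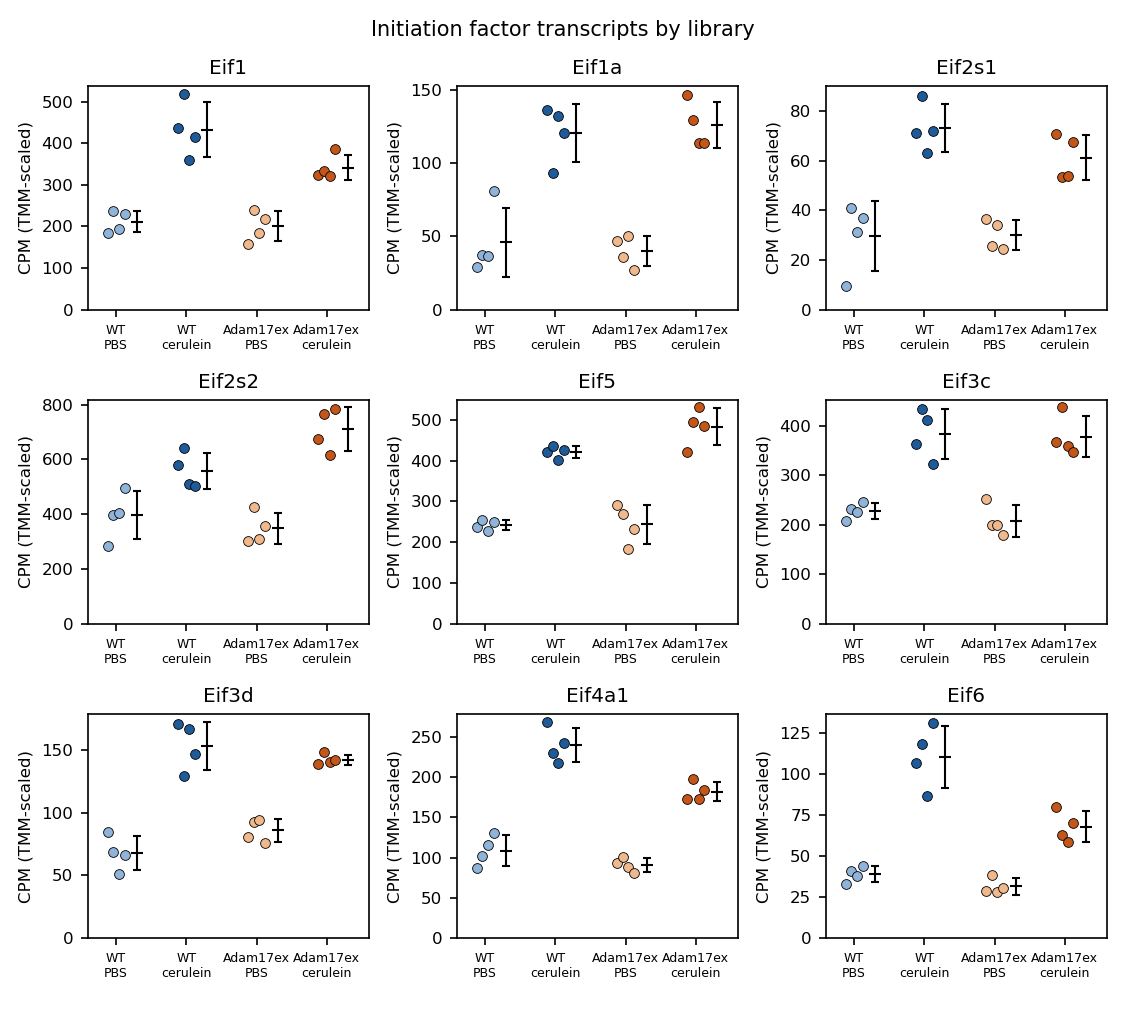
TMM-scaled CPM of 9 initiation factor transcripts in each library (points, 4 per group) with the group mean ± SD as a bar beside them. All 9 genes have their cerulein libraries above their PBS libraries in both genotypes, for example Eif5 at 401 to 435 against 227 to 254 CPM in WT.

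The exchange factor eIF2B, which reloads eIF2 with GTP, had 1 of 5 subunits higher in each genotype (20%, against 19.8% of all genes in WT and 14.1% in Adam17ex) and 0 lower. In WT this was Eif2b2, at 21.2 to 36.8 CPM with PBS and 48.7 to 78.5 CPM with cerulein (0.95 ± 0.27, adjusted p = 0.00609). In Adam17ex it was Eif2b3, at 12.1 to 36.4 CPM with PBS and 38.4 to 49.6 CPM with cerulein (0.90 ± 0.28, adjusted p = 0.0166), a call lost without Adam17ex PBS replicate 4 at 0.56. The other genotype's value was 0.47 ± 0.31 for Eif2b2 and 0.64 ± 0.27 for Eif2b3, and the difference between genotypes in the cerulein response was not called for either. Eif2b1, Eif2b4 and Eif2b5 passed in neither.

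In eIF3, the large complex that holds the small subunit open for recruitment, 4 of 14 members were higher and 1 lower in WT (median 0.25). In Adam17ex 4 were higher and 0 lower (median 0.36). The higher share was 28.6% in each genotype, against 19.8% of all genes in WT and 14.1% in Adam17ex. The lower share in WT was 7.14%, against 21.3%. Eif3d, a subunit that can itself bind the cap of some mRNAs, was at 84.6, 68.5, 51.4 and 66.2 CPM in WT PBS and at 171, 130, 167 and 147 CPM in WT cerulein libraries. Its Adam17ex levels were 80.6, 93.0, 94.4 and 75.8 CPM with PBS and at 139, 148, 140 and 142 CPM with cerulein. Groups were separate in both genotypes, with log2 fold changes of 1.16 ± 0.17 and 0.74 ± 0.17. Eif3c, a core subunit, rose by 0.72 ± 0.16 and 0.87 ± 0.16, and Eif3j2, a loosely bound subunit gene, by 0.59 ± 0.19 and 0.74 ± 0.19, the latter at 0.86 and not past the threshold without the 3 shallow libraries. Eif3l was higher in Adam17ex (0.70 ± 0.20) and not past the threshold without those libraries at 0.54. Its value in WT was 0.29 ± 0.19.

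Eif3g rose in WT by 0.51 ± 0.16 (adjusted p = 0.0144), and its value was 0.45 and missed the threshold without WT cerulein replicate 2. Eif3k, a peripheral subunit, fell in WT, from 152 to 211 CPM to 90.3 to 146 CPM (-0.55 ± 0.19, adjusted p = 0.0202). That call was lost without WT PBS replicate 2 (-0.39), WT cerulein replicate 2 (-0.46) or WT cerulein replicate 3 (-0.39). It was also lost with no filter on low counts. In Adam17ex the Eif3k value was 0.03 ± 0.20. Eif3a, Eif3b, Eif3e, Eif3f, Eif3h, Eif3i, Eif3j1 and Eif3m passed in neither genotype. Their values lay between -0.27 and 0.39 in WT and between 0.14 and 0.59 in Adam17ex.

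Among eIF4F and its helpers, 4 of 10 members were higher and 0 lower in WT (median 0.33; 40% higher, against 19.8% of all genes). In Adam17ex 1 was higher and 1 lower (median 0.42), 10% each, against 14.1% and 16.2% of all genes. Eif4a1 (chr11:69666936-69672423), the main helicase of eIF4F, whose promoter words are printed above, was at 87.0, 101, 115 and 131 CPM in WT PBS and at 269, 230, 218 and 243 CPM in WT cerulein libraries. In Adam17ex it was at 93.6, 101, 88.4 and 80.8 CPM with PBS and at 173, 197, 173 and 184 CPM with cerulein. The groups were far apart in both genotypes, with log2 fold changes of 1.12 ± 0.16 (adjusted p = 8.29e-06) and 1.01 ± 0.17 (adjusted p = 9.67e-05). Its paralogue Eif4a2 had 0.18 ± 0.22 in WT and fell by 0.74 ± 0.23 in Adam17ex (adjusted p = 0.0170), from 34.2 to 56.6 CPM to 25.8 to 36.9 CPM. Eif4a2 no longer passed in Adam17ex with PBS replicate 1 (-0.65) or 4 (-0.59) or cerulein replicate 2 (-0.66) or 4 (-0.59) left out. Without the 3 shallow libraries its value was -0.94, also not past the threshold. The count ratio of Eif4a1 to Eif4a2 was 2.74 to 3.58 in WT PBS and 5.55 to 9.90 in WT cerulein, and 1.43 to 2.59 and 4.69 to 7.66 in the Adam17ex groups, with no overlap between treatments.

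Of the cap-binding protein genes, Eif4e itself had -0.02 ± 0.24 in WT and 0.65 ± 0.26 in Adam17ex (adjusted p = 0.0611). Eif4e2, whose product 4EHP binds the cap without recruiting eIF4G, was at 38.8, 51.4, 38.8 and 47.8 CPM in WT PBS and at 80.5, 89.7, 76.6 and 84.3 CPM in WT cerulein libraries, a log2 fold change of 0.94 ± 0.18 (adjusted p = 0.000194). In Adam17ex the ranges 30.1 to 44.2 and 39.1 to 58.6 CPM overlapped and the value was 0.42 ± 0.20. Eif4e3, a further cap-binding relative, rose in WT by 1.24 ± 0.41 on 2 to 9 UMIs per PBS library and 9 to 13 per cerulein library, and was lost without WT PBS replicate 1 (1.08) or WT cerulein replicate 2 (1.04). Eif4h, a cofactor of the helicase, rose in WT by 0.92 ± 0.19, from 47.0 to 61.3 CPM to 80.8 to 116 CPM, with 0.41 ± 0.20 in Adam17ex. The scaffold genes Eif4g1, Eif4g2 and Eif4g3 and the cofactor Eif4b passed in neither genotype.

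The 4E-binding proteins went in opposite directions. Eif4ebp1 (chr8:27260329-27276674) was at 143, 240, 196 and 190 CPM in WT PBS and at 374, 444, 292 and 395 CPM in WT cerulein libraries. In Adam17ex it was at 122, 98.1, 110.2 and 176 CPM with PBS and at 257, 279, 229 and 332 CPM with cerulein. It rose without overlap in both genotypes, by 1.01 ± 0.20 (adjusted p = 0.000309) and 1.10 ± 0.20 (adjusted p = 0.000335), and the latter was 0.72 and not past the threshold without the 3 shallow libraries. Eif4ebp2 (chr10:61428491-61452661) was at 52.9, 53.6, 63.0 and 60.0 CPM in WT PBS and at 31.7, 21.0, 25.8 and 34.7 CPM in WT cerulein libraries. Its values were 26.0, 46.5, 48.2 and 48.5 CPM in Adam17ex PBS and 24.3, 22.2, 38.4 and 20.4 CPM in Adam17ex cerulein libraries. Eif4ebp2 fell by 1.03 ± 0.22 (adjusted p = 0.000761) in WT, without overlap, and by 0.76 ± 0.25 (adjusted p = 0.0229) in Adam17ex, where PBS replicate 1 lay within the cerulein range. The Adam17ex call was lost when any of PBS replicates 2, 3 and 4 or cerulein replicates 1, 2 and 4 was left out, at -0.69 to -0.57. Eif4enif1, the shuttle and binding partner of eIF4E, had 0.14 ± 0.41 and -0.29 ± 0.39.

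The ratio of Eif4ebp1 to Eif4ebp2 counts within a library was 2.71 to 4.47 in WT PBS and 11.3 to 21.1 in WT cerulein libraries. In Adam17ex it was 2.11 to 4.70 with PBS and 5.97 to 16.2 with cerulein. PBS and cerulein libraries did not overlap in either genotype. The ratio does not depend on the scaling of a library, and its fewest Eif4ebp2 UMIs were 10, in the Adam17ex PBS group.

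**Figure D3:**
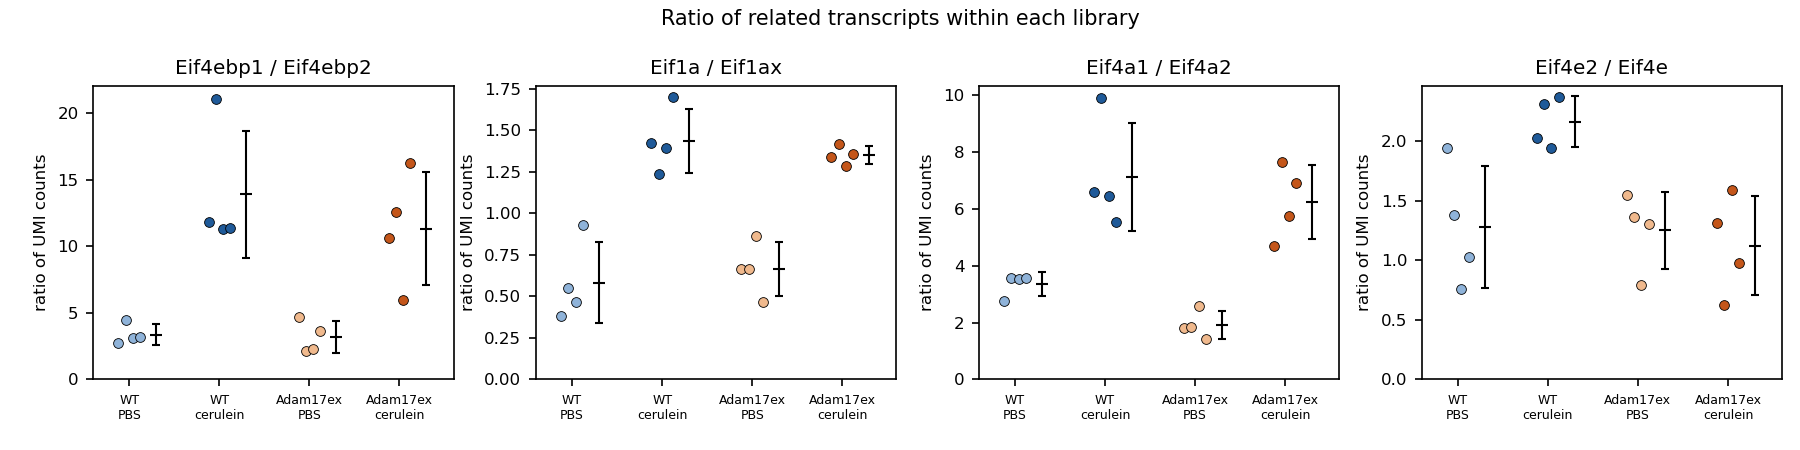
Ratio of UMI counts of related transcripts within each library (points, 4 per group) with the group mean ± SD as a bar beside them. Eif4ebp1/Eif4ebp2, Eif1a/Eif1ax and Eif4a1/Eif4a2 are higher in every cerulein library than in every PBS library of the same genotype, while Eif4e2/Eif4e is 1.95 to 2.37 in WT cerulein and 0.620 to 1.59 in Adam17ex cerulein libraries.

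At subunit joining, Eif6 (chr2:155819832-155826925), which keeps the large ribosomal subunit from joining early and is needed for its assembly, was at 32.9, 41.0, 37.8 and 44.1 CPM in WT PBS and at 107, 118, 86.7 and 131 CPM in WT cerulein libraries. The Adam17ex values were 28.6, 38.7, 28.1 and 30.3 CPM with PBS and at 80.2, 63.1, 58.8 and 70.2 CPM with cerulein. Neither genotype showed overlap, and the log2 fold changes were 1.55 ± 0.18 (adjusted p = 3.83e-07) and 1.13 ± 0.20 (adjusted p = 0.000212). Eif5b, the GTPase that joins the subunits, had 0.29 ± 0.20 and 0.06 ± 0.20. Eif5a, which helps ribosomes through difficult peptide bonds once it carries hypusine, had -0.34 ± 0.16 in WT (adjusted p = 0.0956) and 0.40 ± 0.16 in Adam17ex (adjusted p = 0.0704). Eif4a3 passed in neither.

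The elongation factors were not called in WT, where 0 of the 5 genes listed with eEF1, Eef1e1 included, and not Eef2 passed in edgeR, with 0 at an unadjusted p under 0.05 and 0 in DESeq2 and in limma-voom. Eef1a1, the tRNA-delivering GTPase, was at 268 to 339 CPM in WT PBS and 315 to 382 CPM in WT cerulein libraries, which overlap, with 0.14 ± 0.16. In Adam17ex it went from 325, 238, 249 and 289 CPM to 440, 431, 358 and 418 CPM, or 0.58 ± 0.16 (adjusted p = 0.00867). Eef1b2, an exchange factor subunit for eEF1A, had -0.08 ± 0.16 in WT and rose in Adam17ex from 368 to 453 CPM to 535 to 678 CPM (0.48 ± 0.16, adjusted p = 0.0233). Eef2, the translocase, had 0.13 ± 0.18 in WT and rose in Adam17ex by 0.50 ± 0.17 (adjusted p = 0.0323), from 471, 354, 332 and 543 CPM to 652, 644, 541 and 571 CPM, with overlap. Eef1d and Eef1g, the other exchange subunits, passed in neither genotype. Eef1g had separate groups in WT all the same, at 252 to 305 CPM with PBS and 216 to 245 CPM with cerulein (-0.24 ± 0.16, adjusted p = 0.245).

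Without the 3 shallow Adam17ex PBS libraries, which leaves 1 control, the values were 0.53 for Eef1a1, 0.48 for Eef1b2 and 0.21 for Eef2, and none of the 3 passed. Only the Eef2 value moved by more than its SE. Eef1b2 was also lost without Adam17ex cerulein replicate 2 (0.42), and Eef2 without Adam17ex PBS replicate 2 (0.43) or 3 (0.46) or cerulein replicate 2 (0.47). Eef1e1 rose in Adam17ex by 1.64 ± 0.43 (adjusted p = 0.00603), with overlap, on 0, 4, 6 and 6 UMIs per PBS library and 11, 25, 18 and 47 per cerulein library. In WT its counts were 14 to 27 and 10 to 23, with -0.20 ± 0.34.

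Among the 5 tested enzymes that modify elongation factors, 2 fell and 0 rose in WT (median -0.65), or 40% lower, against 21.3% of all genes. DESeq2 called 1 lower in WT and limma-voom 2. In Adam17ex 0 passed in edgeR (median -0.50), where 2 had an unadjusted p under 0.05, DESeq2 called 0 and limma-voom 1. Eef1akmt3, a lysine methyltransferase of eEF1A, fell in WT from 12.7 to 35.5 CPM to 4.43 to 11.5 CPM (-1.60 ± 0.37, adjusted p = 0.00146), on 4 to 16 UMIs per cerulein library. Eef2k, the kinase that inactivates eEF2, fell in WT by 0.70 ± 0.23 (adjusted p = 0.0173), from 22.3 to 39.2 CPM to 14.5 to 22.9 CPM with overlap, and its value in Adam17ex was -0.63 ± 0.27. The WT call for Eef2k was lost without WT PBS replicate 3 (-0.58), WT PBS replicate 4 (-0.58) or WT cerulein replicate 4 (-0.64), and its value was -0.15 after thinning to the shallowest library. Eef2k was also not called in WT by DESeq2 or with no filter on low counts.

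**Figure D4:**
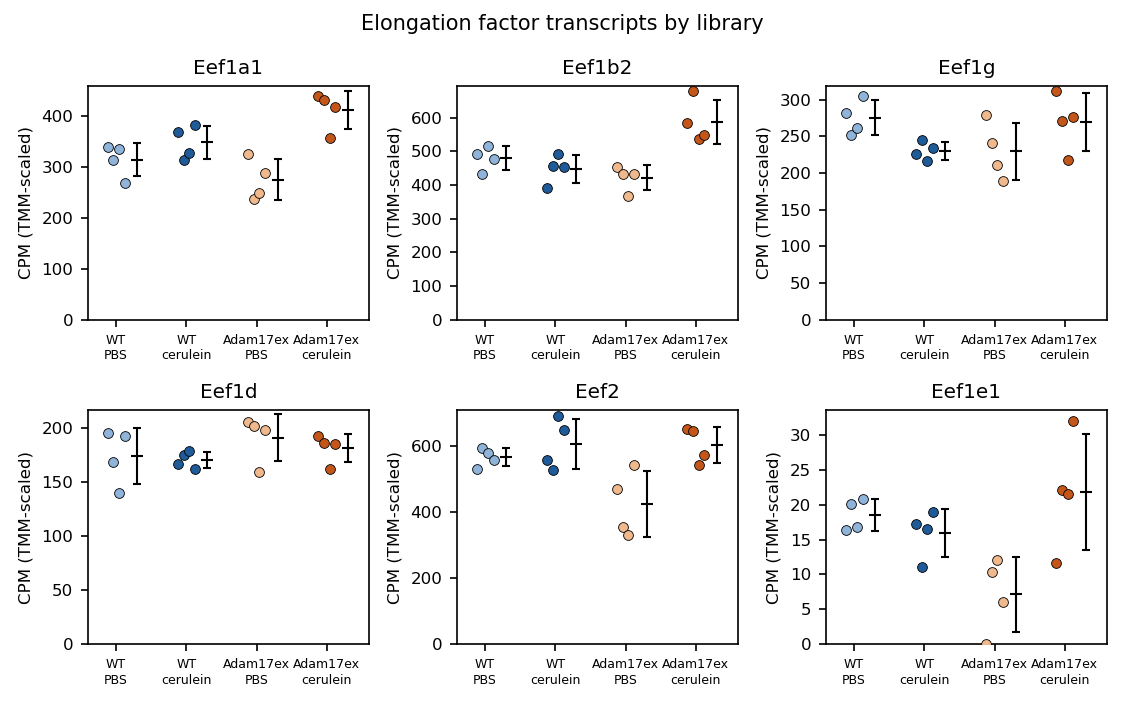
TMM-scaled CPM of 6 elongation factor transcripts in each library (points, 4 per group) with the group mean ± SD as a bar beside them. In WT the PBS and cerulein points of Eef1a1, Eef1b2, Eef1d and Eef2 overlap, and in Adam17ex the cerulein points of Eef1a1 (358 to 440 CPM) and Eef1b2 (535 to 678 CPM) lie above their PBS points.

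The response to cerulein was compared between genotypes by the interaction term, which uses all 4 groups and so shares libraries with every other comparison. Of 58 members 1 passed (1.72%), on the higher side, against 6.02% of all genes (3.75% higher). It was Eef1e1, at 1.84 ± 0.55 (adjusted p = 0.0483), the gene with 0 to 6 UMIs in the Adam17ex PBS libraries. The next members were Eif5a at 0.74 ± 0.23 (adjusted p = 0.0573) and Eif4a2 at -0.92 ± 0.32 (adjusted p = 0.0863), and neither passed in edgeR. DESeq2 called both Eef1e1 and Eif5a, while limma-voom called Eif5a and not Eef1e1, so the tools differ on which member passes. Eef1e1 apart, any member called in WT and not in Adam17ex, or the reverse, is not shown to respond differently between them. Leaving out any library of the 16 except WT cerulein replicate 2, Adam17ex PBS replicate 3 and Adam17ex cerulein replicate 1 brought the number of members called to 0. Without Adam17ex PBS replicate 3 or Adam17ex cerulein replicate 1 Eef1e1 still passed, while without WT cerulein replicate 2 it did not (1.71) and Eif4a2 passed in its place (-1.08). The Eef1e1 value ranged from 1.57 to 2.17 over all alternatives.

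Under cerulein, Adam17ex and WT libraries were compared directly. Of 58 members 3 were lower in Adam17ex and 0 higher (5.17%, against 9.70% of all genes, with 3.85% lower and 5.85% higher), and the median was 0.04 over the members and 0.01 over all genes. On the higher side 5 had an unadjusted p under 0.05 in edgeR, DESeq2 called 0 and limma-voom 1, Eef1b2. Eif6 had 58.8 to 80.2 CPM in Adam17ex and 86.7 to 131 CPM in WT (-0.66 ± 0.17, adjusted p = 0.0127). Eif4e2 had 58.0, 39.1, 55.2 and 58.6 CPM in Adam17ex and 76.6 to 89.7 CPM in WT (-0.61 ± 0.17, adjusted p = 0.0263). Eif3g had 119, 126, 120.1 and 116 CPM in Adam17ex and 152 to 189 CPM in WT (-0.52 ± 0.16, adjusted p = 0.0455). For these 3 the genotypes did not overlap, as was the case for 4 members lower in Adam17ex and for 7.92% of all genes. The fourth was Eif4a1 at -0.42 ± 0.16 (adjusted p = 0.0921). On the higher side 5 members had separate groups, Eef1b2, Eif2b4, Eif3a, Eif3j2 and Eif2a, against 9.64% of all genes, at 0.32 to 0.44, and none of the 5 passed.

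These 3 calls were close to the threshold. With no filter on low counts 0 of the 3 passed. The Eif6 call was lost without WT cerulein replicate 1 (-0.61) or Adam17ex cerulein replicate 4 (-0.63). Eif4e2 was lost without WT cerulein replicate 1 or 2 or Adam17ex cerulein replicate 1, 2 or 4, at -0.64 to -0.53. Eif3g was lost without WT cerulein replicate 2 or 4 or any Adam17ex cerulein library, at -0.54 to -0.47. The number of members called was 1 to 3 with a library left out, and 1 without WT cerulein replicate 1 or 2 or Adam17ex cerulein replicate 1, 2 or 4. Duct markers moved with this comparison, 5 of 6 tested being lower and 1 higher in Adam17ex, and 5 of 18 acinar markers were higher. Their part in the result was not tested.

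Under PBS 2 of 58 members were lower in Adam17ex and 0 higher (3.45%, against 1.36% of all genes, with 0.729% lower and 0.631% higher). Values were below 0 for 41 of 58 members, with a median of -0.14, against 0.03 over all genes. On the higher side 1 had an unadjusted p under 0.05 in edgeR, and DESeq2 and limma-voom called 0. Eif5a was at 205, 227, 191 and 197 CPM in Adam17ex PBS and at 322, 340, 359 and 387 CPM in WT PBS libraries (-0.76 ± 0.18, adjusted p = 0.0385). Eif3k was at 75.4, 111, 66.3 and 109 CPM in Adam17ex PBS and at 165, 211, 152 and 161 CPM in WT PBS libraries (-0.80 ± 0.20, adjusted p = 0.0498). Both had separate groups, as had 6 members lower in Adam17ex and 6.24% of all genes. Adam17ex PBS replicate 4, the deep library of its group, lay within the range of the other 3 for both genes.

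Several alternatives lost these PBS calls with values of about the same size. Without the 3 shallow libraries Eif5a was at -0.84 and Eif3k at -0.67, with 0 members and 0.151% of all genes called. The number of members was 0 without any 1 of the 4 WT PBS libraries or without Adam17ex PBS replicate 2 or 3, and 1 without replicate 1, where Eif5a still passed. Without Adam17ex PBS replicate 4 it was 3, Eif5a and Eif3k among them. The values ranged from -0.89 to -0.66 for Eif5a and from -0.94 to -0.64 for Eif3k over all alternatives. In the 3 shallow libraries ribosomal protein genes took 1.64%, 1.81% and 2.02% of UMIs, against 2.54% in Adam17ex PBS replicate 4 and 2.57% to 3.31% in WT PBS libraries. Mitochondrial genes took 2.33%, 1.90% and 2.06%, against 1.33% and 1.03% to 1.21%. The part of depth and RNA quality in these values was not tested.

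**Figure D5:**
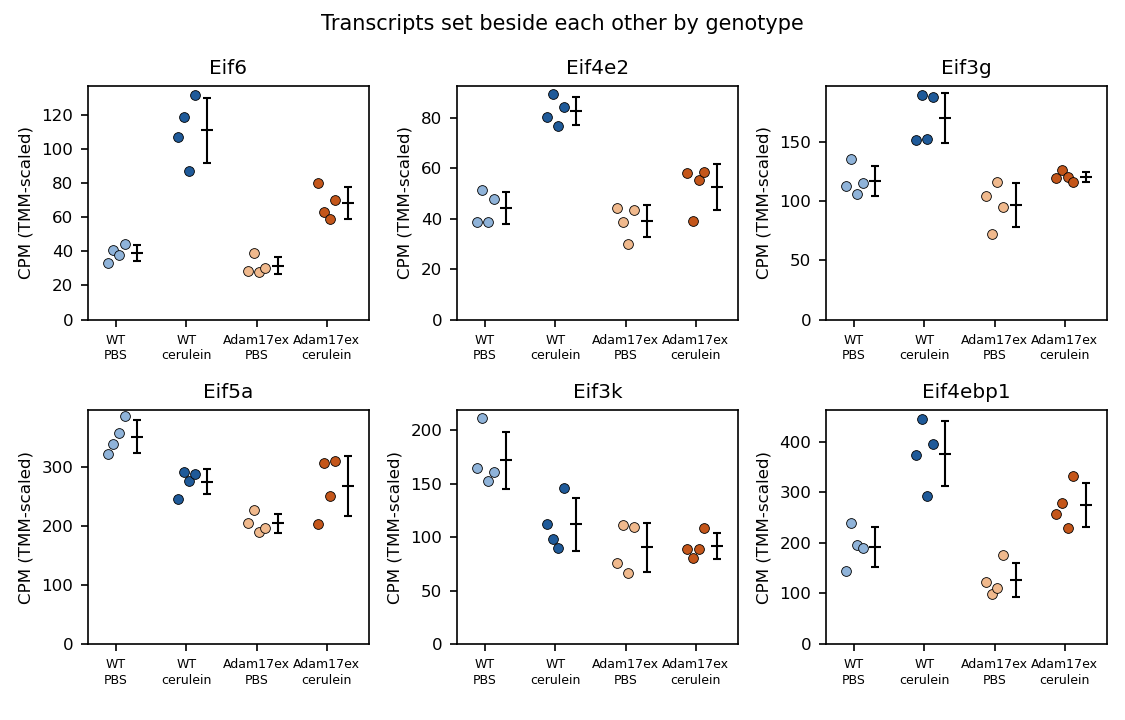
TMM-scaled CPM of 6 transcripts in each library (points, 4 per group) with the group mean ± SD as a bar beside them. The Adam17ex cerulein points of Eif6, Eif4e2 and Eif3g lie below the WT cerulein points, and the Adam17ex PBS points of Eif5a and Eif3k below the WT PBS points.

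The genes that act on these factors are given by lists chosen by function, with earlier results of these data known. Their shares beside those of all genes are therefore descriptive and no independent test. Of 6 eIF2 alpha kinases and phosphatase subunits, 1 rose and 1 fell in WT, and 2 rose and 1 fell in Adam17ex, so 16.7% rose in WT and 33.3% in Adam17ex, against 19.8% and 14.1% of all genes. Under cerulein 3 of the 6 were higher in Adam17ex than in WT, against 5.85% of all genes, namely Eif2ak3 (1.13 ± 0.18), Ppp1r15a (1.72 ± 0.34) and Ppp1r15b (0.72 ± 0.23). DESeq2 called 2 of the 6 higher and limma-voom 3. The Ppp1r15b call was lost without WT cerulein replicate 1, 2 or 4 or any 1 Adam17ex cerulein library, at 0.59 to 0.76. Eif2ak3, the kinase PERK of the endoplasmic reticulum, was at 49.1 to 69.8 CPM in WT PBS and 81.8 to 101 CPM in WT cerulein libraries, and at 36.1 to 66.7 and 173 to 210 CPM in the Adam17ex groups. It rose by 0.60 ± 0.19 in WT and 2.03 ± 0.20 in Adam17ex, and the interaction was 1.43 ± 0.27 (adjusted p = 0.00250), or 0.97 and not past the threshold without the 3 shallow libraries. The phosphatase subunit Ppp1r15b fell in WT (-0.77 ± 0.23), the inducible subunit Ppp1r15a rose in Adam17ex (1.68 ± 0.40), and the kinase Eif2ak4 fell there (-0.97 ± 0.34). Ppp1r15a varied widely in Adam17ex cerulein libraries, at 48.4 ± 33.1 CPM against 15.2 ± 5.57 CPM with PBS (mean ± SD), and these groups overlapped. The Eif2ak4 call was lost without any 1 Adam17ex PBS library or Adam17ex cerulein replicate 1, 2 or 3, at -1.02 to -0.78. Eif2s1, the subunit these kinases phosphorylate, had no called interaction. Phosphorylation itself was not measured.

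Targets of the integrated stress response, the programme that follows eIF2 alpha phosphorylation, rose in 8 of 19 cases and fell in 1 in WT (42.1% and 5.26%, against 19.8% and 21.3% of all genes). In Adam17ex 16 rose and 0 fell (84.2%, against 14.1% of all genes). The 4 with the smallest p were Nupr1 (2.40 ± 0.21), Vldlr (-1.68 ± 0.29), Atf3 (2.71 ± 0.46) and Ddit4 (1.99 ± 0.35) in WT, and Nupr1 (1.95 ± 0.21), Slc3a2 (1.57 ± 0.17), Cebpg (1.60 ± 0.20) and Trib3 (2.59 ± 0.33) in Adam17ex. Under cerulein 8 of 19 were higher in Adam17ex than in WT and 0 lower (42.1%, against 5.85% of all genes), led by Trib3 (2.27 ± 0.27), Atf4 (1.12 ± 0.20), Cebpb (1.07 ± 0.21) and Chac1 (1.78 ± 0.35). Atf4, its transcription factor, had 0.15 ± 0.20 in WT and rose by 1.11 ± 0.20 in Adam17ex, with an interaction of 0.96 ± 0.29 (adjusted p = 0.0468) that was lost in 17 of 25 alternatives, at 0.85 to 1.24 over all of them. In the list of mTORC1 and MNK signalling to the cap, 1 of 12 tested genes rose and 4 fell in each genotype (8.33% and 33.3%). Over all genes the shares were 19.8% and 21.3% in WT and 14.1% and 16.2% in Adam17ex. Those that fell were the mTOR inhibitor Deptor (-1.41 ± 0.17 and -1.60 ± 0.18), the eIF4A inhibitor Pdcd4 (-1.79 ± 0.27 and -1.99 ± 0.27), the S6 kinase gene Rps6kb1 (-1.53 ± 0.19 and -1.17 ± 0.19) and the eIF4E kinase gene Mknk1 (-1.52 ± 0.22 and -0.70 ± 0.22). The Adam17ex call for Mknk1 was lost without PBS replicate 2 (-0.57) or 4 (-0.61) or cerulein replicate 1 (-0.62) or 4 (-0.40), and without the 3 shallow libraries (-0.92). The 4 include activators and inhibitors. The gene that rose was Rptor in WT (1.35 ± 0.31) and Rheb in Adam17ex (0.57 ± 0.20). The Rheb call was lost without PBS replicate 2 or 3 or cerulein replicate 1 or 2, at 0.56 to 0.60. It was also lost without the 3 shallow libraries (0.36). Rptor averaged 7.76 CPM in PBS-treated WT mice and 19.1 CPM after cerulein. Its Adam17ex means were 20.3 and 17.3 CPM, so the low group was the WT controls. Of the 12 genes, 1 was higher in Adam17ex than in WT under PBS and 1 under cerulein, with 0 lower. Each is 8.33%, against 0.631% of all genes higher under PBS and 5.85% under cerulein. The interaction called 1 lower and 0 higher (8.33% lower, against 2.27% of all genes).

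Pdcd4, the inhibitor of the helicase encoded by Eif4a1, was at 109 to 181 CPM in WT PBS and 24.4 to 64.2 CPM in WT cerulein libraries, and at 121 to 299 and 40.2 to 57.0 CPM in the Adam17ex groups. The Pdcd4 and Eif4a1 transcripts therefore moved in opposite directions in both genotypes, each without overlap. Of 9 tested poly(A)-binding and termination factors, 1 rose and 1 fell in WT (11.1% each, against 19.8% and 21.3% of all genes). In Adam17ex 3 rose and 0 fell (33.3% higher, against 14.1% of all genes). Etf1, the release factor, rose in both (0.69 ± 0.18 and 0.97 ± 0.18). Of 5 tested enzymes for hypusine on eIF5A and diphthamide on eEF2, 1 rose in WT (20%, against 19.8% of all genes). It was Dhps, the deoxyhypusine synthase (1.30 ± 0.38), from 3.53 to 11.5 CPM to 12.2 to 21.0 CPM. Dhps was lower in Adam17ex than in WT under cerulein (-1.35 ± 0.37, adjusted p = 0.0215). The genotype call was lost without WT cerulein replicate 1 (-1.31) or 2 (-1.22) or Adam17ex cerulein replicate 2 (-1.18) or 4 (-1.27). Eif5a, the substrate of Dhps, passed in neither of these comparisons.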

How the data were processed

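Total RNA from frozen pancreas of 16 mice was made into pooled libraries from 30 ng each, primed on the poly(A) tail, with a UMI of 10 bp and a sense read of 101 bp, per the labels' protocols. The authors deposited whole-number counts per gene and library for 24019 genes, without normalization. Software listed in the submitters' processing notes is limma 3.50.0, edgeR 3.36.0 and R 4.1.2, with GRCm38 and mm10 as builds. How reads were aligned and counted and UMIs collapsed is not given in the sources used here. Isoforms with a common 3′ end cannot be told apart in such counts.

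Samples were grouped by the genotype and treatment in their labels, each group holding 4 libraries. The labels give 0 males in WT PBS, 1 in WT cerulein and 2 in each Adam17ex group, and a code whose meaning is not given and whose values differ between the groups, so if it marks cohorts, cohort and group cannot be told apart. Each library is 1 replicate, since chi-square per degree of freedom was 3.79 to 13.1 over the 24 pairs within groups, above sampling noise. The p-values measure the spread between these mice.

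The counts were tested with edgeR 4.0.16 in R 4.3.3 (filterByExpr with a minimum count of 10, TMM factors, glmQLFit and glmQLFTest on group and sex over all 16 libraries, 11 residual degrees of freedom), which kept 8236 genes. Genes were called at a Benjamini-Hochberg adjusted p under 0.05 over all of them, without a minimum fold. Log2 fold changes are given ± SE, and levels as TMM-scaled CPM. The code was tested on simulated data. DESeq2 1.42.0, limma-voom (limma 3.58.1), RLE factors, TMM without acinar genes, no filter, no sex term, a replicate block, fits on the compared groups, thinning to the shallowest library, and leaving out libraries were tried as alternatives.

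Named are every called member, the 4E-binding proteins and up to 4 further members per role with the smallest p. For the other genes of the pathway, called genes are named, up to 4 per list and comparison. Some called genes of these lists are counted and not named. Outside this rule, the remaining members of a complex are listed without single values, and Rptor, Rheb and the members with separate groups that did not pass were chosen after their values were seen. The members and lists were chosen with earlier results of these data known. Eif4ebp3, Eef1a2 and Eif4e1b were not analysed here. Promoters come from RefSeq on GRCm38.p6.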

Additional observations from a re-analysis of the deposited data

Results flagged for a closer look

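In each of the 58 tested members and 4 groups, the highest or lowest of the 4 libraries was compared with the rest by Dixon's 95% critical value. Of 232 groups, 15 (6.47%) held a library that stood apart, where chance gives about 1 in 20. All values are TMM-scaled CPM.

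Among the genes listed with scanning and the ternary complex, WT PBS replicate 4 was high for Eif1a at 80.9 against 29.4 to 37.2 in its group. WT PBS replicate 3 was high for Eif1ad at 32.5 against 22.1 to 22.3. Eif2a was low in WT cerulein replicate 4 at 15.7 and high in Adam17ex cerulein replicate 1 at 43.3. The eIF2B gene Eif2b1 was high in Adam17ex PBS replicate 4 at 32.3, the deep library of that group, where the others had 18.1 to 18.2.

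Eif3i, a core eIF3 subunit gene, stood apart in 3 of 4 groups, with 162 in WT PBS replicate 2, 76.6 in WT cerulein replicate 3 and 110.1 in Adam17ex PBS replicate 4. Eif3h stood apart in both cerulein groups, at 136 in WT replicate 4 and 92.4 in Adam17ex replicate 3. Eif5b was high in Adam17ex PBS replicate 1 at 962 against 527 to 571. In the same library Eif4ebp2 was low at 26.0 against 46.5 to 48.5. Eef1d was low in Adam17ex PBS replicate 3 at 159, Eef2kmt in Adam17ex PBS replicate 4 at 10.1 and Eef1aknmt in WT PBS replicate 2 at 5.96.

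The cerulein response of Eef1e1 differed between the genotypes by the interaction test in edgeR, at 1.84 on the log2 scale, resting on 0 to 6 UMIs per Adam17ex PBS library. It was not called in limma-voom.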

How the results depend on the processing

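Of the member calls, 15 of 21 for cerulein in WT and 10 of 21 for cerulein in Adam17ex passed under every alternative in which the gene was tested, and 0 of those between genotypes or in the interaction did. No called member changed sign under any of them. The cause of the shifts below was not tested. For cerulein in Adam17ex, 13 members were called without the 3 shallow PBS libraries, against 21. For the genotype under cerulein, against 3, the number was 1 with no filter, a member that was not among the 3. It was 5 with limma-voom, 1 after thinning to the shallowest library and 5 with the compared groups alone. For the genotype under PBS, against 2, it was 1 with RLE factors and 0 after thinning, with the compared groups alone or without the 3 shallow libraries. For the interaction, against 1, it was 0 with RLE factors, 0 with TMM factors without acinar genes, 2 with DESeq2, 2 without a sex term, 2 with the replicate block, and 0 after thinning or without the shallow libraries. In limma-voom the interaction number stayed at 1, with Eif5a called and not Eef1e1. With single libraries left out the numbers ranged from 18 to 22 for cerulein in WT, 18 to 24 for cerulein in Adam17ex, 1 to 3 and 0 to 3 for the genotype under cerulein and PBS, and 0 to 2 for the interaction.

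Whether the replicate numbers pair mice across groups cannot be settled by the correlations between libraries. Of 24 same-numbered pairs of libraries 5 had deviations correlated over 0.1 (-0.22 to 0.24, against -0.26 to 0.23 for other pairs), and 6 of 16 libraries correlated best with their own number. With the number as a replicate block the members called were 22 for cerulein in WT, 21 for cerulein in Adam17ex, 3 and 2 for the genotype under cerulein and PBS, and 2 for the interaction, and Eif3g lost its genotype call (-0.53). Counting error is widest for members with few UMIs, such as Eef1e1, Eif4e3, Eif2d and Eef1akmt3, and the part of depth in the calls was not tested.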
